A study of Homo sapiens with 6 samples.

Results

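The genes described here are autosomal genes that were expressed in AGS cells given a control siRNA (si-NC) and listed at 0 in AGS cells given an siRNA against FTO (si-FTO). They were selected on the measured values themselves: a mean of at least 10 TPM in si-NC and of exactly 0.0001 TPM in si-FTO. TPM gives transcripts relative to their length, scaled to a fixed total, and 0.0001 is the value that the table holds for 29534 genes in si-FTO and that is read here as 0. The column also holds 16 values between 0 and 0.0001, so 0.0001 is not its lowest value, which limits this reading. Both limits were met by 177 genes. Among these, 31 lay on a sex chromosome, 3 had no entry in the GRCh37 annotation, and 10 autosomal genes were left out because their symbols begin with ZNF, HOX, PCDH or COL or end in -AS and a digit. This left 133 genes, 1.45% of the 9185 autosomal genes with at least 10 TPM in si-NC. Before symbols were left out the share was 1.56%, and since the choice of genes used this contrast, nothing is read from it.

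AGS is a cell line from a human gastric adenocarcinoma, and FTO removes the m6A methyl mark from RNA. The series compared 3 si-NC libraries with 3 si-FTO libraries of total RNA, made with a stranded kit, to ask which transcripts differ after FTO is depleted. By genotype, the labels call the si-NC cells wild type and the si-FTO cells FTO-/-, while titles and the study's methods name siRNAs; the means do not show which holds. The deposited table gives 1 mean per group, so the spread between libraries is unknown and no difference was tested. TPM scales each group to a fixed total and keeps no read number, so the depth is unknown too. FTO (ENSG00000140718) had a mean of 33.1 TPM in si-NC against 7.27 TPM in si-FTO, the direction its label gives. Both groups are labelled AGS, yet markers of epithelium and neurons had far apart levels in them, in both directions. Of 17 epithelial genes with at least 1 TPM in either group, 13 were at least 2-fold higher in si-FTO on log2(TPM + 1) and 3 lower. KRT8, a keratin, had 10.8 TPM in si-NC against 3139 TPM in si-FTO. Unlike most of that list, GATA6, a factor of gut endoderm, had 20.3 and 2.54 TPM. Of 23 neuronal genes, 15 were at least 2-fold lower in si-FTO and 5 higher. UCHL1, a ubiquitin hydrolase, had 303 and 0.0204 TPM. Unlike most of that list, BASP1, a growth cone protein, had 30.9 and 956 TPM. Of all autosomal genes with at least 1 TPM in either group, 19.3% were at least 2-fold lower and 13% higher. Whether both groups hold the same cell line was not tested, and this doubt bears on every value compared between them. In bulk RNA, fewer cells that express a gene and less RNA per cell cannot be told apart.

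Much of what sets cell lineages apart is held by transcription factors of development, which switch on the receptors, adhesion molecules and cytoskeletal proteins of a given tissue. Such genes are often silent in other tissues, and cancer cell lines can express those of lineages other than their own. In the stomach, epithelial cells are marked by keratins, tight junction proteins and mucins, with CDX2 present where the mucosa takes on an intestinal character.

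By biotype, 124 of the 133 genes were protein coding (93.2%), 7 were long noncoding RNAs (5.26%) and 2 were pseudogenes (1.5%). Among all 9185 autosomal genes with at least 10 TPM in si-NC, these shares were 93.8%, 2.69% and 2.81%. The 9185 genes include symbols of the kinds left out of the 133. With no symbols left out, 90.9% of the selected genes were protein coding. Whether the shares differ was not tested. Levels of the 133 genes in si-NC ran from 10.1 to 97.6 TPM with a median of 16.6 TPM, beside a median of 33.0 TPM for those 9185 genes. Together they made up 3032 TPM, or 0.303% of the si-NC total. Only 9 of them reached 50 TPM and 56 reached 20 TPM. Their longest transcripts had a median of 3684 bases, 7 exons and 48.7% GC, beside 3669 bases, 8 exons and 48.5% GC in the same comparison.

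**Figure D1:**
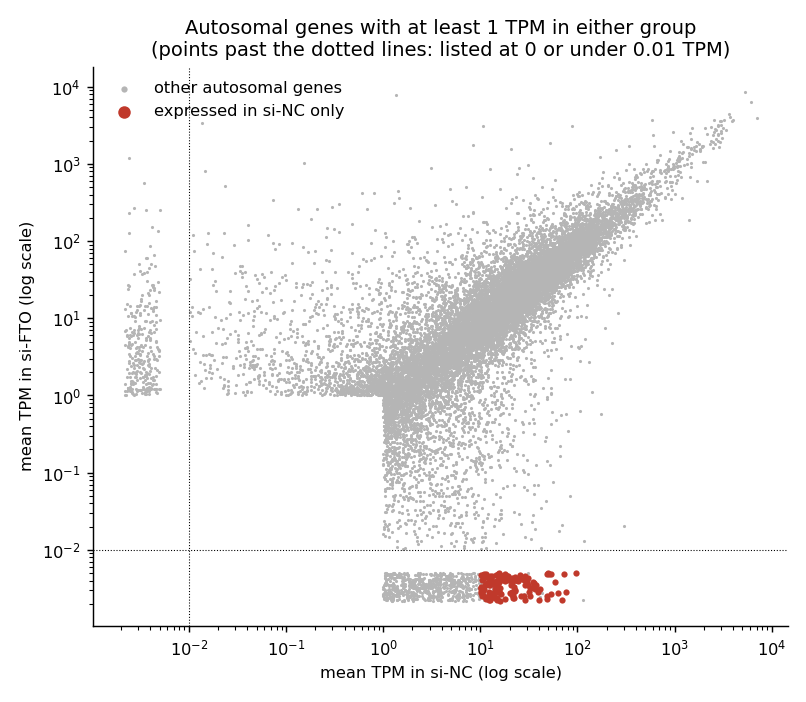
Mean TPM in si-NC (x axis, log scale) and in si-FTO (y axis, log scale) of the 16907 autosomal genes with at least 1 TPM in either group. Each point is a gene, the 133 genes expressed in si-NC only are red, and points past the dotted lines are listed at 0 or lie under 0.01 TPM, spread at random for display; the red points lie at the foot of the plot from 10.1 to 97.6 TPM in si-NC.

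At the edge of the limits, the lowest levels inside were those of SP9 (10.1 TPM), a zinc finger factor of forebrain neurons, LINC01033 (10.1 TPM) and UGT3A2 (10.2 TPM), a UDP-glycosyltransferase. Just outside on the si-NC side, also listed at 0 in si-FTO, were MEX3C at 9.86 TPM, an RNA-binding ubiquitin ligase, NKX6-1 at 9.72 TPM, a homeodomain factor of pancreatic beta cells and motor neurons, and P2RY1 at 9.70 TPM, an ADP receptor. Just outside on the si-FTO side were ENSG00000177359 with 14.6 TPM in si-NC against 0.00240 TPM in si-FTO, FRAS1 with 10.8 and 0.00303 TPM, a basement membrane protein, and IPO5P1 with 11.7 and 0.00305 TPM, a pseudogene. Values on both sides of the si-NC limit thus lay close together. On the si-FTO side, the nearest values outside began at 0.00240 TPM, while the 0.0001 TPM of the genes inside is read as 0. Depth is unknown, so how few reads part these genes from those inside is unknown, and no gap is read from this.

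Transcription regulators formed the largest of the role groups, which were assigned after the values were seen, with 30 genes and a median of 17.4 TPM in si-NC. The most abundant was SALL2 at 48.4 TPM, a zinc finger factor of the spalt family, followed by ID4 at 41.3 TPM, an inhibitor of basic helix-loop-helix factors. GATA4, a factor of heart and endoderm that is also made in the stomach, had 37.0 TPM, and HAND1, a factor of heart and trophoblast, had 35.8 TPM. POU4F1, known from sensory neurons, had 32.2 TPM. SALL1, needed for kidney development, had 28.6 TPM, and POU3F3, a factor of brain and kidney, had 22.7 TPM. BARX2 and BARX1 had 21.5 and 18.3 TPM, and BARX1 is known for patterning the stomach through its mesenchyme. CDX2, the intestinal homeobox factor, had 18.1 TPM. All of these were listed at 0 in si-FTO, as the selection requires.

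Further down in level lay factors of bone, heart and neural crest. SOX21 had 15.9 TPM and SOX2, a factor of neural and pluripotent cells, had 13.2 TPM. ISL1, a LIM homeodomain factor of motor neurons and pancreatic islets, had 15.7 TPM and LHX8, of the same class, had 11.7 TPM. DLX5, a factor of bone and branchial arches, had 14.0 TPM, TBX18, a T-box factor of the epicardium and ureter, had 11.4 TPM, and PAX3, a factor of neural crest and muscle precursors, also had 11.4 TPM. The tissues in which these factors are best known thus lie far apart in the body, from brain to bone and heart.

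**Figure D2:**
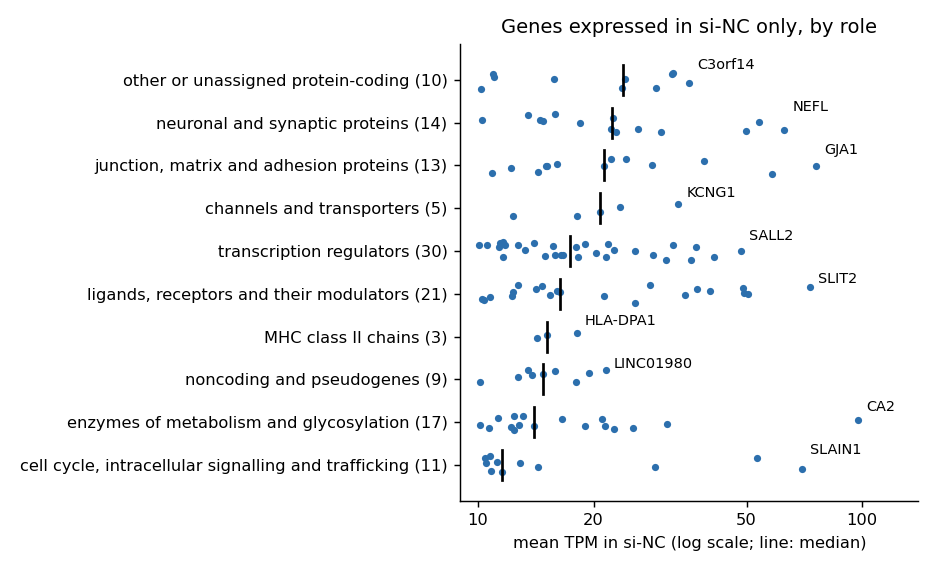
Mean TPM in si-NC (x axis, log scale) of the 133 genes, grouped by role with the number of genes in parentheses. Points are genes, black lines are group medians and the highest gene of each group is named; transcription regulators form the largest group with 30 genes, and CA2 at 97.6 TPM is the highest gene.

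Of the gene lists, the families of developmental transcription factors held the most of the 133 genes. Of 216 such autosomal genes found, 147 had at least 1 TPM in either group and 15 of these (10.2%) were expressed in si-NC only, among them SALL2, GATA4, HAND1, POU4F1 and SALL1. The same share over all 16907 autosomal genes with at least 1 TPM in either group was 0.787%, and since the genes were chosen by this contrast, nothing is read from it. On the scale of log2(TPM + 1), 85 of the 147 were at least 2-fold lower in si-FTO (57.8%) and 14 were at least 2-fold higher (9.52%), with a median log2 ratio of si-FTO to si-NC of -1.30. Over all 16907 genes, 19.3% were at least 2-fold lower and 13% at least 2-fold higher, with a median of -0.21. In all, 34 of the 147 factors were listed at 0 in si-FTO (23.1%, beside 4.38% of the 16907 genes). The 15 chosen genes are part of these 34, of the 85 and of the median, so these values are not independent of the choice. Counts and medians of the other lists likewise include those of the 133 genes that they hold. The mirrored limits, at least 10 TPM in si-FTO and listed at 0 in si-NC, were met by 60 autosomal genes, which were 0.679% of the 8833 that reached 10 TPM in si-FTO and 0.355% of the 16907. Of the 147 factors, 0 were among them, and nothing is read from this beside so small a share. Of the 60 genes, 47 were protein coding (78.3%). Whether the list differs from other genes was not tested.

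Whole families, chosen after the values were seen, show which relatives remained measured in si-FTO. Of the spalt factors, SALL1, SALL2 and SALL3 were listed at 0 in si-FTO, from 28.6, 48.4 and 5.66 TPM in si-NC, whereas SALL4, a factor of pluripotent and fetal cells, had 2.37 TPM in si-NC against 18.3 TPM in si-FTO. Of the GATA factors, GATA4 was listed at 0, GATA6 had 20.3 TPM in si-NC against 2.54 TPM in si-FTO, GATA3 had 22.4 and 0.890 TPM, and GATA2 had 45.8 and 60.1 TPM. ID4 was listed at 0, while ID1 had 50.7 TPM in si-NC against 66.3 TPM in si-FTO, ID3 had 213 and 122 TPM, and ID2 had 175 and 0.584 TPM. Relatives within a family therefore had unlike values in si-FTO, from 0 to over 100 TPM.

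Ligands, receptors and their modulators made up 21 genes with a median of 16.4 TPM in si-NC. SLIT2, a secreted guidance cue, had 73.0 TPM. Of its receptors, ROBO1 had 37.6 TPM in si-NC against 90.8 TPM in si-FTO, ROBO3 had 17.3 and 1.76 TPM, and ROBO2 had 4.80 TPM in si-NC and was listed at 0 in si-FTO. The related cue SLIT3 had 2.87 TPM in si-NC and was likewise listed at 0, and SLIT1 had 2.05 and 0.330 TPM. NRN1, a membrane-anchored neurotrophic protein, had 50.4 TPM, and BMP7, a bone morphogenetic protein of kidney and eye development, had 40.3 TPM. SFRP1, a secreted inhibitor of Wnt signalling, had 14.7 TPM. SMO, the membrane protein that passes on the Hedgehog signal, had 49.2 TPM. The rest of that pathway remained measured in si-FTO in part: PTCH1, the Hedgehog receptor, had 12.8 TPM in si-NC against 11.2 TPM in si-FTO, SUFU, an inhibitor, had 20.7 and 9.26 TPM, and the transcription factors GLI2 and GLI3 had 12.4 and 14.2 TPM in si-NC and 4.48 and 3.70 TPM in si-FTO. The Hedgehog ligands SHH, IHH and DHH were all under 0.1 TPM in both groups.

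CALCB encodes a calcitonin gene-related peptide and had 37.1 TPM, and RAMP1, which joins the calcitonin receptor-like protein to form the receptor of that peptide, had 25.7 TPM. RAMP2, which turns the same protein into an adrenomedullin receptor, had 12.3 TPM. CALCRL, the receptor protein itself, was at 0.666 TPM in si-NC against 0.0232 TPM in si-FTO, so the peptide and its modulator were measured in si-NC with little transcript of their partner. LPAR3, a receptor for lysophosphatidic acid, had 34.6 TPM, while LPAR1 had 9.82 TPM in si-NC against 19.4 TPM in si-FTO and LPAR2 had 9.36 and 7.83 TPM. The latrophilins ADGRL2 and ADGRL3, adhesion receptors of synapses, had 49.0 and 10.4 TPM, and the third family member, ADGRL1, had 82.1 TPM in si-NC against 25.3 TPM in si-FTO. GPR27, an orphan receptor, had 16.1 TPM. On the list of G protein-coupled receptors, 4 of the 78 genes with at least 1 TPM (5.13%, beside 0.787% of all genes) were expressed in si-NC only. Of the 78, 34 were at least 2-fold lower in si-FTO (43.6%, beside 19.3% of all genes) and 15 at least 2-fold higher (19.2%, beside 13%). Their median log2 ratio was -0.73, but -0.017 among genes with at least 10 TPM.

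The Eph receptors, tyrosine kinases that read ephrins on neighbouring cells, gave 3 of the 133 genes. EPHA4, EPHA7 and EPHA3 had 12.7, 12.3 and 10.3 TPM in si-NC. EPHA6 at 8.39 TPM and EPHA5 at 1.30 TPM were below the limit and were listed at 0 in si-FTO too, and EPHA8 had 26.1 TPM in si-NC against 0.00631 TPM in si-FTO. EPHA2, an Eph receptor of epithelia, had 17.4 TPM in si-NC against 48.3 TPM in si-FTO, EPHA1 had 0.687 and 1.21 TPM, and EPHA10 had 0.584 and 1.53 TPM. Of the EPHB receptors, EPHB4 had 46.8 and 43.9 TPM, EPHB2 had 8.31 and 5.18 TPM, EPHB3 had 4.76 and 0.376 TPM, EPHB1 had 2.66 and 0.10 TPM, and EPHB6 had 1.82 TPM in si-NC and was listed at 0 in si-FTO. The list of adhesion molecules, which takes in Eph receptors, had 74 genes with at least 1 TPM. Of these, 5 (6.76%, beside 0.787% of all genes) were expressed in si-NC only, namely the 3 Eph receptors, CNTNAP2 (14.8 TPM), a neurexin-like protein of the axon, and ITGA4 (12.2 TPM), an integrin chain of leukocytes and neural crest. In this list 42 genes were at least 2-fold lower in si-FTO (56.8%, beside 19.3% of all genes) and 10 at least 2-fold higher (13.5%, beside 13%), with a median log2 ratio of -1.17. That median was -2.63 with a pseudocount of 0.1 and -0.65 among genes with at least 10 TPM.

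**Figure D3:**
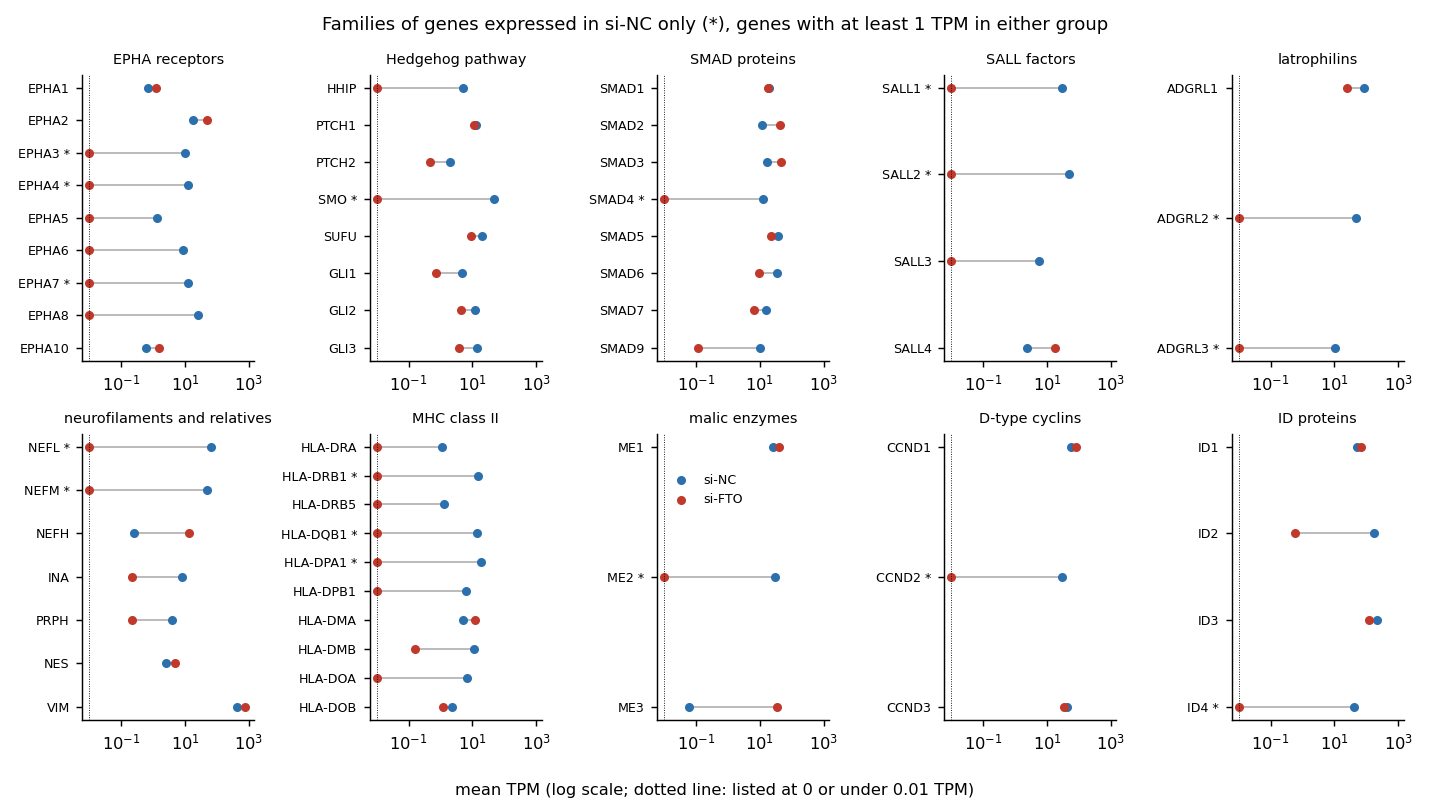
Mean TPM in si-NC (blue) and si-FTO (red) on a log scale for 10 gene families, showing genes with at least 1 TPM in either group. Stars mark genes expressed in si-NC only, and points on the dotted line are listed at 0 or lie under 0.01 TPM; EPHA2, SMAD2, SALL4 and ME3 lie further right in si-FTO than in si-NC while their starred relatives lie on the line.

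Neuronal and synaptic proteins made up 14 genes with a median of 22.4 TPM in si-NC. NEFL and NEFM, the light and medium neurofilament chains, had 62.7 and 49.9 TPM and lie side by side on chromosome 8. NEFH, the heavy chain encoded on another chromosome, had 0.242 TPM in si-NC against 13.0 TPM in si-FTO. DTNA, a dystrobrevin that links dystrophin to the synaptic membrane, had 53.8 TPM. CADPS2, a protein of dense-core vesicle release, had 13.5 TPM. On the list of neuronal markers, 23 of 44 genes had at least 1 TPM in either group. Of these, 15 were at least 2-fold lower in si-FTO (65.2%, beside 19.3% of all genes) and 5 at least 2-fold higher (21.7%, beside 13%), with a median log2 ratio of -2.59 (-4.76 with a pseudocount of 0.1 and -4.05 among genes with at least 10 TPM). NEFL and NEFM were the genes of this list among the 133 (8.7% of the 23, beside 0.787% of all genes). The list summed to 661 TPM in si-NC against 1004 TPM in si-FTO, the larger sum resting on BASP1. In si-NC, UCHL1 had the highest level of these genes, while STMN2, SYT4 and GRIA2 were listed at 0 in both groups. The part of neuronal genes in the values of the 133 genes was not tested.

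The labelled origin of the cells was checked against markers of gastric and gut epithelium. Of 31 such genes, 17 had at least 1 TPM in either group, of which 3 were at least 2-fold lower in si-FTO (17.6%, beside 19.3% of all genes) and 13 at least 2-fold higher (76.5%, beside 13%), with a median log2 ratio of 1.76 (3.53 with a pseudocount of 0.1 and 3.57 among genes with at least 10 TPM). The list summed to 124 TPM in si-NC against 5502 TPM in si-FTO. Of the keratin genes, 3 made up most of the sum in si-FTO: KRT8 had 10.8 TPM in si-NC against 3139 TPM in si-FTO, KRT18 had 52.1 and 1851 TPM, and KRT7 was listed at 0 in si-NC and had 253 TPM in si-FTO. EPCAM, an epithelial surface marker, had 1.22 TPM in si-NC against 0.113 TPM in si-FTO, and CDH1, the gene of E-cadherin, had 3.67 and 0.685 TPM. TFF1 and GKN1, made by gastric mucous cells, and TFF3, made by intestinal goblet cells, were listed at 0 in both groups. KRT19, a keratin of simple epithelia, was listed at 0 in si-NC and had 0.130 TPM in si-FTO. Beyond keratins, the 13 higher genes included ELF3 (0.115 TPM in si-NC against 93.3 TPM in si-FTO), ST14 (0.0376 and 39.3 TPM) and MUC1 (1.71 and 31.0 TPM). EPCAM and CDH1 were among the 3 lower genes. With most of the list higher in si-FTO but the secretory markers TFF1, GKN1 and TFF3 at 0 in both groups, the markers do not settle the labelled origin of either group. Of the 17 genes, CDX2 was among the 133 (5.88%, beside 0.787% of all genes). Whether the difference in epithelial markers and the 133 genes share a source was not tested.

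**Figure D4:**
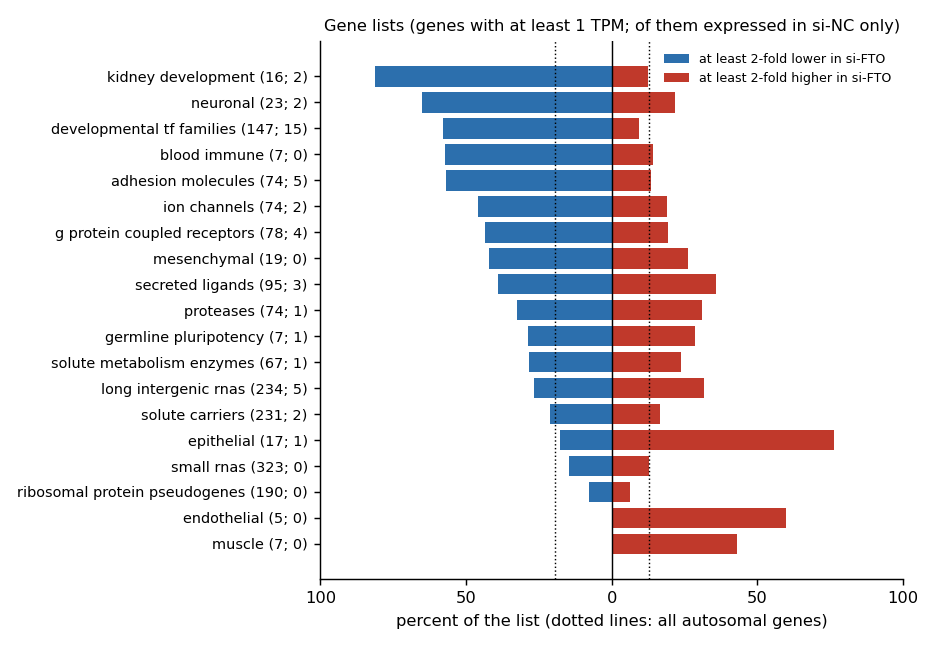
Percent of each gene list at least 2-fold lower (blue, to the left) or higher (red, to the right) in si-FTO on log2(TPM + 1), for 19 lists with at least 5 genes at 1 TPM. Numbers in parentheses are those genes and how many of them were expressed in si-NC only, and dotted lines are all autosomal genes (19.3% lower and 13% higher); developmental factors have 57.8% to the left and epithelial genes 76.5% to the right.

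On the list of kidney development genes, 13 of 16 with at least 1 TPM were at least 2-fold lower in si-FTO (81.2%, beside 19.3% of all genes) and 2 at least 2-fold higher (12.5%, beside 13%), with a median log2 ratio of -2.49 (-4.67 with a pseudocount of 0.1). SALL1 and POU3F3 (12.5% of the 16, beside 0.787% of all genes) were the genes of this list among the 133. PAX2, a factor of the nephric duct, had 5.42 TPM in si-NC and was listed at 0 in si-FTO, whereas SIX2, a factor of nephron progenitors, had 37.3 and 36.4 TPM. Among germline and pluripotency genes, 1 of 7 (14.3%) was expressed in si-NC only, namely SOX2. The lists of mesenchymal, blood and immune, endothelial, liver and pancreas, and muscle markers had 19, 7, 5, 1 and 7 genes with at least 1 TPM, and 0 of these were among the 133. The 323 small RNAs and 190 ribosomal protein pseudogenes also held 0. The share over all genes was 0.787%, so nothing is read from these counts.

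Junction, matrix and adhesion proteins made up 13 genes with a median of 21.3 TPM. GJA1, the gap junction protein connexin 43, had 76.0 TPM in si-NC, and of the 7 alpha connexins it was the only one that reached 10 TPM in either group. EPB41L3, a protein 4.1 that ties membrane proteins to the cytoskeleton, had 58.3 TPM. Its relatives EPB41, EPB41L1 and EPB41L2 had 73.0, 34.9 and 134 TPM in si-NC and 36.6, 46.9 and 35.9 TPM in si-FTO. EMILIN3, an extracellular glycoprotein, had 38.9 TPM, and ADAMTS2, which trims procollagen, had 16.1 TPM. EMB, a chaperone of monocarboxylate transporters, had 15.1 TPM.

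Enzymes of metabolism and glycosylation made up 17 genes with a median of 14.0 TPM. CA2, the cytosolic carbonic anhydrase that supplies acid and bicarbonate in stomach and kidney, was the highest of all 133 genes at 97.6 TPM in si-NC. Among 15 carbonic anhydrase genes, CA8, which lacks catalytic activity, was also expressed in si-NC only, at 12.2 TPM. ME2, the mitochondrial malic enzyme that turns malate into pyruvate with NAD, had 31.0 TPM in si-NC. The other malic enzymes were measured in si-FTO: ME1 of the cytosol had 25.5 TPM in si-NC against 41.3 TPM in si-FTO, and ME3 of mitochondria had 0.0595 and 34.0 TPM. MOCS1, an enzyme of molybdenum cofactor synthesis, had 16.6 TPM, AASS, the first enzyme of lysine breakdown, had 12.8 TPM, and GALNT14, which starts mucin-type glycan chains, had 22.7 TPM.

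Channels and transporters made up 5 genes. KCNG1, a modifying subunit of voltage-gated potassium channels, had 33.2 TPM, KCNJ8, a subunit of ATP-sensitive potassium channels, had 20.8 TPM, SLC35F1 had 18.1 TPM, and SLC6A11, a transporter of GABA, had 12.4 TPM. Among the 133 genes were 2 of the 231 solute carriers with at least 1 TPM (0.866%) and 2 of the 74 ion channels (2.7%), beside 0.787% of all genes. In cell cycle, signalling and trafficking there were 11 genes. SLAIN1, a microtubule plus-end protein, had 69.5 TPM, and IFT57, a subunit of the transport machinery of cilia, had 53.2 TPM. CCND2, cyclin D2, had 28.9 TPM, while CCND1 had 56.6 TPM in si-NC against 80.3 TPM in si-FTO and CCND3 had 40.7 and 32.8 TPM. RAB39A and ELMOD1, a vesicle GTPase and a regulator of small GTPases, had 11.2 and 10.5 TPM, EHD3, a protein of endosome recycling, had 14.4 TPM, and CRACR2A, a calcium sensor, had 10.8 TPM. Of the proteins with no role assigned, C3orf14 had 35.4 TPM, PNMA8A 32.1 TPM and TMEM98 32.0 TPM.

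The 7 long noncoding RNAs and 2 pseudogenes ran from 10.1 to 21.5 TPM. LINC01980 had 21.5 TPM, ENSG00000278041 18.0 TPM, LINC02253 15.9 TPM, LINC00665 14.8 TPM, LINC03057 13.5 TPM and ENSG00000284428 12.7 TPM. The pseudogenes ENSG00000246596 and TUBBP5, a beta-tubulin copy, had 19.5 and 13.9 TPM. On the list of long intergenic RNAs, 5 of 234 with at least 1 TPM (2.14%, beside 0.787% of all genes) were expressed in si-NC only.

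By location, the 133 genes lay on 20 of the autosomes, with none on chromosomes 21 and 22. Of all 9185 autosomal genes with at least 10 TPM in si-NC, 1.45% belonged to the 133. By chromosome, this share was highest on chromosome 13, with 7 of 146 (4.79%), and on chromosome 18, with 5 of 140 (3.57%). It was 0.408% on chromosome 16 and 0.503% on chromosome 19. Chromosome 2 held the largest number, 15 of 627. The counts per chromosome are small and were not tested, so nothing is read from them. Within 1 Mb of another such gene, measured between start sites, lay 23 of the 133 genes, in 11 stretches. How often other expressed genes lie so close was not tested, so nothing is read from this count.

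On chromosome 18, ME2 (chr18:48405450-48480627 on GRCh37, plus strand) and SMAD4 (chr18:48554898-48611415, plus strand) start 149 kb apart. SMAD4, the partner that SMAD proteins share in TGF-beta and BMP signalling, had 12.7 TPM in si-NC. Between and beside them, MRO with 0.524 TPM, ELAC1, a tRNA-processing nuclease, with 3.85 TPM, ENSG00000267699 with 0.627 TPM and MEX3C with 9.86 TPM in si-NC were likewise listed at 0 in si-FTO. These 6 neighbouring genes with at least 0.5 TPM in either group were thus listed at 0 in si-FTO, ME2 and SMAD4 as the selection requires. The stretch was marked off where the zeros end. Over all autosomal genes with at least 1 TPM in either group, 4.38% were listed at 0 in si-FTO. MRO and ENSG00000267699 lie under that minimum, so the share was taken at another limit than the 6 genes. Nothing is read from the count of 6. On the side of lower coordinates, MAPK4, with its start at -468 kb from that of SMAD4, had 2.47 TPM in si-NC against 0.0132 TPM in si-FTO, SKA1 had 15.3 and 7.71 TPM, CXXC1 had 63.0 and 45.7 TPM and MBD1 had 30.1 and 30.2 TPM. Further out, CFAP53 had 0.294 and 1.17 TPM, and MYO5B had 2.69 and 5.97 TPM. Of the receptor-activated partners, SMAD2 and SMAD3 had 11.4 and 16.8 TPM in si-NC and 43.6 and 45.4 TPM in si-FTO, SMAD1 had 19.8 and 18.3 TPM, SMAD5 had 38.1 and 21.8 TPM, and SMAD9 had 10.4 and 0.113 TPM. The inhibitory SMAD6 and SMAD7 had 35.9 and 16.1 TPM in si-NC and 9.16 and 6.42 TPM in si-FTO. The cause of this pattern was not tested, and the tables hold no measure of DNA.

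**Figure D5:**
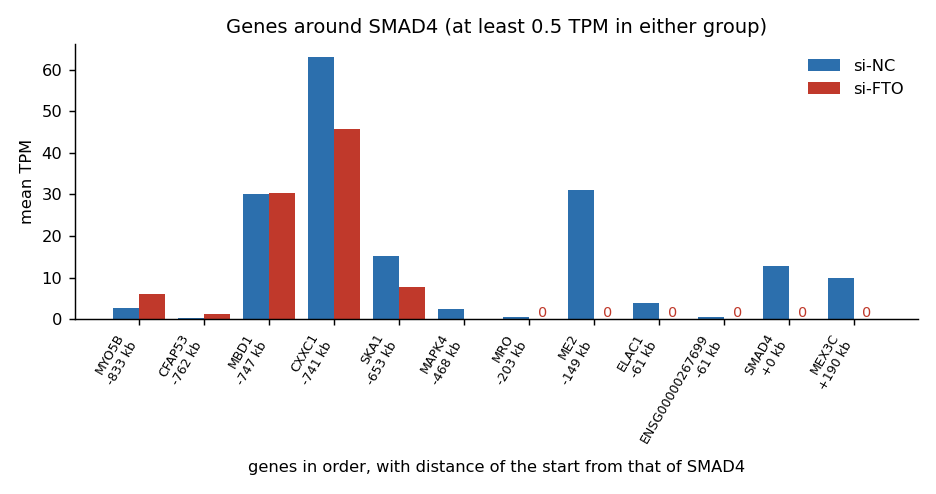
Mean TPM (y axis, linear) in si-NC (blue) and si-FTO (red) of the genes with at least 0.5 TPM in either group that start within 1000 kb of SMAD4, in order, with the distance of each start in kb. A red 0 marks genes listed at 0 in si-FTO, which are the 6 genes from MRO to MEX3C.

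The promoters of ME2 and SMAD4 are shown because these neighbours share their pattern, beside those of GJA1 and SLIT2, which were among the 3 most abundant of the 133 genes. They are the 250 bases before the first listed start in RefSeq on GRCh38.p14, plus strand, at chr18:50878868-50879117, chr18:51029963-51030212, chr6:121435396-121435645 and chr4:20251655-20251904, with the dinucleotide CG in capitals.
ME2: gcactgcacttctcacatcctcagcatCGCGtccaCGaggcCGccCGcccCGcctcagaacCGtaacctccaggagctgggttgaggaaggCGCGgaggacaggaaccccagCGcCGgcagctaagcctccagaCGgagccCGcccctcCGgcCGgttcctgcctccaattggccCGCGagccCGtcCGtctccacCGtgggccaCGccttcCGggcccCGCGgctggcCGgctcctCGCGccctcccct
SMAD4: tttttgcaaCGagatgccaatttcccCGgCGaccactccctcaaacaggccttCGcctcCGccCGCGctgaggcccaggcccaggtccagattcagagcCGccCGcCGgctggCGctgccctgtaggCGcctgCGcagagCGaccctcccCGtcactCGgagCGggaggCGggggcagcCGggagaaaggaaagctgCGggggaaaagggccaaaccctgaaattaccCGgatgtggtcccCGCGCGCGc
GJA1: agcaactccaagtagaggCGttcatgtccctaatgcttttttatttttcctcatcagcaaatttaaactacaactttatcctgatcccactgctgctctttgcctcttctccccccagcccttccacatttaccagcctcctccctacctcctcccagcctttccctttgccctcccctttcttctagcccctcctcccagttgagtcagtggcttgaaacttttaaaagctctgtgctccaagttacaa
SLIT2: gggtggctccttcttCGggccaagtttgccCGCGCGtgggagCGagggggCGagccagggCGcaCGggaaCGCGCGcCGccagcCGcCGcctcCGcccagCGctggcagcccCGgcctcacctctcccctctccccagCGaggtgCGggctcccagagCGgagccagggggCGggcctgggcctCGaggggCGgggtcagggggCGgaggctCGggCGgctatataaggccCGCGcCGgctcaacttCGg
CG occurred 27 times before ME2, 25 times before SMAD4, 30 times before SLIT2 and 1 time before GJA1. Over the 27305 promoters of the table, the median was 11, and 93.6% held at least 1 CG. None of the 4 promoters held TATAAA on either strand within 300 bases, a word found in 12% of all promoters of that length. Only this exact word was sought, so variants of it, such as the tatataa shown before SLIT2, were not counted. The 4 promoters thus ranged from rich to poor in CG. The table matched 90 of the 133 genes (67.7%), under the 80% needed, so a comparison of CpG content over the table is void. In 1000 bases around the annotated start on GRCh37, the median ratio of observed to expected CpG was 0.742 for the 133 genes and 0.773 for the 9185 autosomal genes with at least 10 TPM in si-NC.

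In the class II region of the major histocompatibility complex on chromosome 6, whose proteins present peptides to helper T cells, HLA-DPA1, HLA-DRB1 and HLA-DQB1 had 18.1, 15.1 and 14.2 TPM in si-NC and were listed at 0 in si-FTO. Their partner chains had lower levels: HLA-DRA had 1.15 TPM, HLA-DQA1 0.656 TPM and HLA-DPB1 6.46 TPM in si-NC, each listed at 0 in si-FTO. HLA-DOA had 6.59 TPM and was listed at 0 too, while HLA-DMB had 10.9 TPM in si-NC against 0.163 TPM in si-FTO and HLA-DMA had 5.12 and 12.1 TPM. CIITA, the coactivator that drives these genes, had 0.263 and 0.185 TPM, and CD74, the invariant chain, had 0.587 and 0.113 TPM. HLA-DPA1, HLA-DRB1 and HLA-DQB1 were not among the genes with a similar transcript elsewhere at the limits given further on. PTPRC, the common leukocyte marker, was listed at 0 in both groups. On the list of blood and immune genes, which holds PTPRC and CD74, 7 other genes had at least 1 TPM. Of these, 4 were at least 2-fold lower and 1 at least 2-fold higher in si-FTO, beside 19.3% and 13% of all genes.

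Of the other stretches, that of NEFM and NEFL on chromosome 8 joined 2 neurofilament chains. On chromosome 13, SLAIN1 and POU4F1 start 906 kb apart. On chromosome 2, GALNT14 and EHD3 start 79.0 kb apart and EPHA4 and PAX3 725 kb apart. On chromosome 5, EMB and ISL1 start 940.2 kb apart, on chromosome 7 AASS and CADPS2 742 kb, and on chromosome 11 ELMOD1 and RAB39A 337 kb. DAAM2 (15.4 TPM), a formin-like protein of Wnt signalling, and MOCS1 overlap on opposite strands of chromosome 6. On chromosome 12, CRACR2A and CCND2 start 505 kb apart, and PARP11 between them, a mono-ADP-ribosyltransferase, had 6.52 TPM in si-NC and was listed at 0 in si-FTO.

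Along the autosomes, genes with at least 1 TPM in si-NC were put in order, and runs of at least 3 neighbours all listed at 0 in si-FTO were sought, a search chosen after the values were seen. Of the 15514 genes ordered, 741 were listed at 0 in si-FTO (4.78%). There were 16 such runs that held at least 1 of the 133 genes, with 21 of these genes in all, and the longest, around CCND2, had 5 genes. Some runs joined a factor to its neighbours of the same family or locus. DLX5 lay in a run with DLX6, its paired homeobox gene, with 8.65 TPM in si-NC. POU3F3 lay in a run with PANTR1, a noncoding RNA with 9.52 TPM. ENSG00000278041 lay between NKX2-4 with 6.34 TPM and NKX2-2 with 2.99 TPM, homeobox factors of the brain. GUCY1B1 with 21.4 TPM lay beside GUCY1A1 with 3.71 TPM, the chains of the soluble guanylate cyclase that nitric oxide activates. How often such runs arise among unrelated genes was not tested.

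The nearest gene on each side with at least 10 TPM in either group and outside the 133 was taken within 500 kb. This gave 150 pairs for 98 of the 133 genes and 146 flanking genes. Their median log2 ratio was -0.40, beside -0.16 for all 10242 autosomal genes with at least 10 TPM in either group. It was -0.77 with a minimum of 1 TPM, beside -0.21 for all genes at that minimum, and -0.23 with median-ratio scaling of the groups, beside 0.0065 for the 10242 genes scaled alike. Of the 146, 34 were at least 2-fold lower in si-FTO (23.3%) and 10 at least 2-fold higher (6.85%), beside 14.7% and 13.3% of the 10242 genes. Since flanking genes come from the same contrast, this is a description only. MYO1D, a myosin gene beside TMEM98, had 47.6 TPM in si-NC against 0.0424 TPM in si-FTO, and CCDC8 beside PNMA8A had 34.5 and 0.0229 TPM. TSPAN33, 43.8 kb from SMO, had 25.7 and 1.73 TPM. In the other direction, CCN2, which encodes a matricellular protein and lies 450 kb from MOXD1, had 4.20 TPM in si-NC against 126 TPM in si-FTO, and DOCK5 beside NEFL had 5.48 and 34.3 TPM. The flanking genes named here were chosen after their values were seen.

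Reads can be divided between similar transcripts, so each of the 133 longest transcripts was compared with those of all other genes. For 6 of them, other genes matched at least 50% of the transcript at 95% identity or more: ENSG00000246596, DAAM2, EMB, LINC00665, TUBBP5 and SP9. The search covered both strands. The closest gene to DAAM2, DAAM2-AS1 (45.5% of the transcript), overlaps it on the opposite strand and is not a copy elsewhere. The closest gene to ENSG00000246596 was SIMC1, which had 43.6 TPM in si-NC against 11.8 TPM in si-FTO, and the closest to LINC00665 was LINC01535 with 9.32 TPM in si-NC, likewise listed at 0 in si-FTO. The values of these 6 genes are uncertain. A gene with at least 1 TPM in either group overlapped 26 of the 133 genes, 8 on the same strand and 19 on the opposite strand, with MOCS1 counted in both. Of these 29 overlapping genes, 14 were listed at 0 in si-FTO, among them DAAM2 and MOCS1 as the selection requires. The share listed at 0 was 4.38% over all 16907 autosomal genes with at least 1 TPM in either group. Whether overlapping genes differ from other genes was not tested. The strand used in counting is not given in the sources used here, so reads of such pairs, among them RAMP2, ITGA4, SOX21, ID4, SMO, NEFM and their partners on the opposite strand, could not be told apart. RPL29P4 within SLC35F1 had 97.3 TPM in si-NC against 228 TPM in si-FTO, which makes the level of SLC35F1 uncertain as well.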

How the data were processed

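Values came from 3 si-NC and 3 si-FTO libraries of AGS cells. The values deposited are TPM, averaged to 1 mean for each group. The study's methods name Bowtie mapping to hg19 and RSEM, the submitters' processing notes name HISAT2 and hg19, and the annotation is not given in the sources used here. The authors' comparison columns (log2 ratio, p and q) were not used. Columns of TPM for separate libraries were looked for, and 0 were found. Depth is unknown. The members and lists were chosen with earlier results of these data known; role groups, families and the search for runs of genes were added after the values were seen.

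Gene classes and positions came from GENCODE 44 lifted to GRCh37, which held 55726 of the genes, with 2448 not found. Ratios are log2 of (si-FTO + 1) over (si-NC + 1). Named genes were the 25 protein-coding and 8 other genes highest in si-NC, those within 1 Mb of another, those on a list, 3 on each side of each limit, and FTO; others were chosen after their values were seen, and not every gene that the rule takes is named. Transcripts were compared with blastn 2.17.0. Python 3.11.15, numpy 2.4.6, pandas 2.3.3, scipy 1.17.1 and matplotlib 3.10.9 were used, and the counting was tested on simulated data. No significance test was run. Alternatives were other limits, distances, identities, pseudocounts and a scaling of the groups.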

Additional observations from a re-analysis of the deposited data

How the results depend on the processing

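No paired analysis was possible because the values used are group means, and so leaving out a library and the replicate block were not run. Unknown depth and spread limit every value. The number of genes expressed in si-NC only was 253 at a minimum of 5 TPM, 56 at 20 TPM and 316 with si-FTO under 1 TPM, against 133. The protein-coding share was 98.2% at 20 TPM, against 93.2%. The median level was 16.4 TPM with si-FTO under 0.1 TPM and 16.5 TPM with no symbols left out, against 16.6 TPM. Within 500 kb of another lay 13 genes, against 23 within 1 Mb. The median log2 ratio of flanking genes was -0.42 with a pseudocount of 0.1, -0.77 at a minimum of 1 TPM, -0.47 within 100 kb and -0.23 with median-ratio scaling, which adds 0.17 to log2 values in si-FTO. Similar transcripts were found for 10 genes at 90% identity and 15 at 20% of the length, against 6. The promoter CpG ratio was 0.742 over 1000 bases. Of 24 alternatives, the other 10 lay within 1.5 times the count or within the 95% Wilson interval of the share. Scaling of gene lists was added after seeing the data.

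The sign of the median log2 ratio changed at a minimum of 10 TPM for mesenchymal genes (-0.27), solute carriers (0.011), ion channels (0.082), proteases (0.52) and metabolism enzymes (0.015), and with scaling for solute carriers (0.0080), metabolism enzymes (0.029) and small RNAs (0.11). The cause was not tested.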
